A study of Mus musculus with 88 samples.

Results

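Plk2 and Plk3 are the 2 polo-like kinase genes described here, out of 10518 genes measured on the arrays. They were found by the symbols in the probe annotation, updated through Entrez identifiers, and are read by 3 of 13260 probes, 2 for Plk2 and 1 for Plk3. Plk2 was chosen by its own log2 ratios in these samples, being higher with LPS and lower with isoproterenol or prostaglandin E2, so its responses are given as a description with no test. Plk3 was taken as its close relative and was tested.

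The samples came from the mouse line RAW 264.7, whose cells resemble macrophages, kept for 1, 2 or 4 h with one of 5 treatments. These were LPS at 100 ng/ml, isoproterenol (ISO) at 50 nM, prostaglandin E2 (PGE2) at 10 µM, LPS with ISO, and LPS with PGE2. Lipid binding protein at 100 pM is listed with LPS in the groups of LPS alone and is not listed in the combinations. RNA of treated cells was set against RNA of cells in medium of the same time on 2-colour oligonucleotide arrays, with the dyes swapped on a second array. That gave 88 arrays, 44 dye-swap pairs and 15 groups of 3 numbered sets, with 2 sets for PGE2 at 1 h. Whether the treatments of 1 time shared their medium RNA, and whether sets were separate cultures, is not stated in the labels, so a p-value here measures the spread between sets only, which may be technical.

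LPS, from the outer membrane of Gram-negative bacteria, acts on macrophages through Toll-like receptor 4. ISO, an agonist of beta-adrenergic receptors, and PGE2, through its EP2 and EP4 receptors, can both raise cyclic AMP, which activates protein kinase A and the transcription factor CREB. Polo-like kinases are serine/threonine kinases with a C-terminal polo-box domain that binds phosphorylated partners. Plk1 and Plk4 are best known for mitosis and centriole duplication. Plk2 (also called Snk) and Plk3 (also called Fnk) were first described as genes induced early by serum or growth factors, and both are also known from responses to stress, DNA damage and p53.

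The sequences just upstream of both genes are shown because they carry different forms of the cAMP response element, the site bound by CREB and related factors. The genes lie at chr13:110395044-110400844 on the plus strand for Plk2 and chr4:117128655-117133963 on the minus strand for Plk3, and both are annotated as protein coding. Each line gives the 250 bases before the annotated gene start in RefSeq, build GRCm38.p6, 5′ to 3′ on the gene's strand, with matches to the element or its first 5 bases in capitals. The windows are chr13:110394794-110395043 for Plk2 and chr4:117133964-117134213 for Plk3.
Plk2: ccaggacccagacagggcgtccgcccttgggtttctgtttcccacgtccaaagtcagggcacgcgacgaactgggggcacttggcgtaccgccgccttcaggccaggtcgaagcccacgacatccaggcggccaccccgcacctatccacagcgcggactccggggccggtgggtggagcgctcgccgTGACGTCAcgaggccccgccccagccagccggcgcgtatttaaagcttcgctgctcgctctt
Plk3: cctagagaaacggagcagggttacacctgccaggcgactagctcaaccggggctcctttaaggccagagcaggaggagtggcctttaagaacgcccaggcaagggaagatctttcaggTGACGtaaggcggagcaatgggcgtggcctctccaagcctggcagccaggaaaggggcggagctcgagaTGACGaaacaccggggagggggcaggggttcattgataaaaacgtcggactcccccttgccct

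The Plk2 window held the full 8-base element, TGACGTCA, starting 62 bases before the gene start. The Plk3 window held no full element and 2 copies of the half-site TGACG, starting 132 and 63 bases before the start. Both strands were searched, and the full element holds the half-site on each strand. Of 32841 RefSeq promoter windows of the same length, 1.55% held the full element and 17.8% at least 1 half-site. No match was found in either window to the AP-1 site TGANTCA (6.75% of windows), the kappaB site (3.9%), the CArG box (1.47%) or the Egr site GCGNGGGCG (4.7%). A match is a description of the letters, and these arrays did not measure binding.

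Every value that follows is the log2 ratio of treated to medium cells, where 1 stands for a 2-fold higher and −1 for a 2-fold lower level, and SD is the spread between sets. The direction is likely rather than stated in the sources, because the deposited table does not name the numerator. Its basis is that 23 measured genes of a list of known LPS targets had medians between 0.861 and 3.029, all positive, on the 18 arrays of LPS alone. Ratios hold no absolute level. The macrophage label therefore could not be checked by level, and Plk2 cannot be compared with Plk3 in abundance. In RNA of whole cultures, fewer cells that express a gene and less of its RNA per cell also cannot be told apart.

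Plk2 was higher with LPS alone at every time. At 1 h its 3 sets were at 2.23, 1.71 and 1.84, a mean of 1.93 ± 0.27 (SD, n = 3), or 3.80-fold over medium. At 2 h the sets were at 1.52, 1.53 and 1.11, a mean of 1.39 ± 0.24 or 2.62-fold. At 4 h they were at 1.73, 0.90 and 1.18, a mean of 1.27 ± 0.42 or 2.41-fold. All 9 sets lay above 0. The 3 sets at 1 h lay above those at 2 h, with the sets at 4 h overlapping both.

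ISO alone went with a lower Plk2 level in all 9 sets. At 1 h the sets were at −2.45, −0.93 and −1.78, a mean of −1.72 ± 0.76 (SD, n = 3), or 3.29-fold lower than medium, with the widest spread of the 15 groups. At 2 h they were at −1.96, −1.66 and −1.64, a mean of −1.75 ± 0.18 or 3.37-fold lower. By 4 h they were at −0.74, −0.77 and −0.50, a mean of −0.67 ± 0.15 or 1.59-fold lower. Each set at 4 h lay nearer to 0 than every set at 1 or 2 h. Set 1 at 4 h includes an array with probe 2 at exactly 0, whose dye-swap partner was at −1.15. The order of that set against set 2 at 1 h therefore depends on whether the 0 was measured.

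With PGE2 alone Plk2 was also lower in all 8 sets. The 2 sets at 1 h were at −2.13 and −1.63, a mean of −1.88 ± 0.36 (SD, n = 2), or 3.68-fold lower. At 2 h the 3 sets were at −1.26, −1.49 and −1.41, a mean of −1.39 ± 0.12 or 2.62-fold lower. At 4 h the sets were at −0.93, −0.96 and −0.71, a mean of −0.87 ± 0.14 or 1.83-fold lower. The sets of the 3 times did not overlap, and the ratio was nearer to 0 at each later time. ISO and PGE2 sets overlapped at 1 h and at 4 h. At 2 h every ISO set lay below every PGE2 set, whereas at 1 h and at 4 h the ISO mean lay above the PGE2 mean. As a mean over times, ISO minus PGE2 was −0.0007 for Plk2. The share of all genes with such gaps between sets was not computed. Plk2 was chosen by these values, so nothing is read from the gaps.

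**Figure D1:**
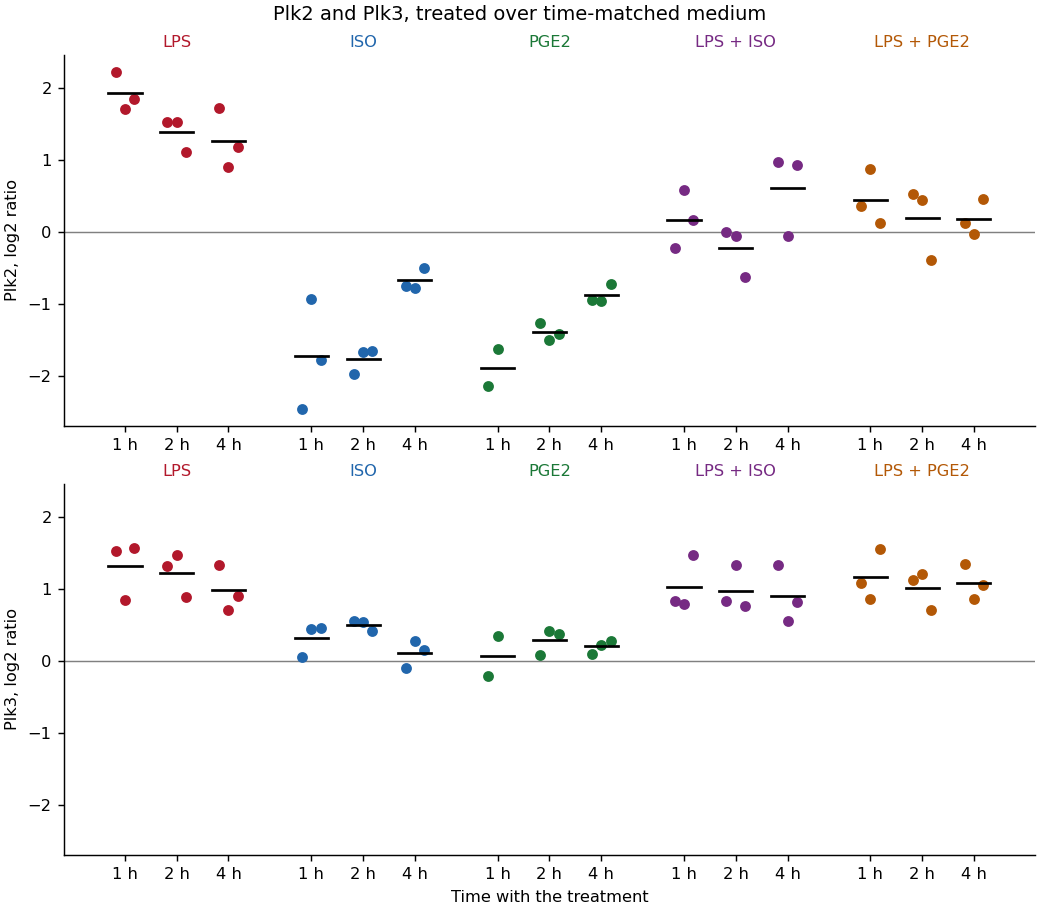
Log2 ratio of treated over medium (vertical axis) for Plk2, top, and Plk3, bottom, by treatment and time (horizontal axis); each point is 1 set, the mean of its 2 dye-swap arrays, and each black line is the mean of the sets of a group. Plk2 lies above 0 with LPS, below 0 with ISO or PGE2 and between them in the combinations, whereas Plk3 lies between 0.55 and 1.57 in all 27 sets with LPS.

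In the combinations Plk2 lay between its values with LPS alone and with the second ligand alone. After 1 h with LPS and ISO the sets were at −0.22, 0.58 and 0.16 (mean 0.17 ± 0.40, SD, n = 3). They were at 0.01, −0.05 and −0.62 after 2 h (−0.22 ± 0.35), and 0.98, −0.05 and 0.93 after 4 h (0.62 ± 0.58). After 1 h with LPS and PGE2 they were at 0.36, 0.87 and 0.12 (0.45 ± 0.38). By 2 h those sets were at 0.53, 0.45 and −0.38 (0.20 ± 0.51), and by 4 h at 0.12, −0.03 and 0.46 (0.19 ± 0.25). Of these 18 sets 12 lay above 0 and 6 below, so the level straddled that of medium. In LPS with ISO at 4 h, set 2 lay apart from the other two. Leaving out 1 set in turn gave means of −0.03 to 0.37, −0.34 to −0.02 and 0.44 to 0.95 for LPS with ISO at 1, 2 and 4 h, the highest without set 2. The same gave 0.24 to 0.62, 0.03 to 0.49 and 0.05 to 0.29 for LPS with PGE2.

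Against LPS alone at the same time, Plk2 in LPS with ISO differed by −1.75 at 1 h, −1.61 at 2 h and −0.65 at 4 h on the log2 scale. These are 29.7%, 32.7% and 63.7% of the level with LPS alone. LPS with PGE2 differed from LPS alone by −1.47, −1.19 and −1.08, or 36.0%, 43.8% and 47.3% of that level. In 5 of these 6 comparisons every set of the combination lay below every set of LPS alone. The share of all genes with that pattern was 2.79%, 2.99% and 2.29% for ISO at 1, 2 and 4 h and 2.22%, 2.71% and 2.92% for PGE2. The exception was LPS with ISO at 4 h, where sets overlapped. The LPS values in these comparisons are among those by which Plk2 was chosen, so nothing is read from these shares. The comparisons at 1 time share their LPS sets. Lipid binding protein is listed for LPS alone and not for the combinations. That difference and the added ligand cannot be told apart here.

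The Plk2 ratio in each combination was set beside the sum of its log2 ratios with each ligand alone. For LPS with ISO the combination and the sum were 0.17 and 0.21 at 1 h, −0.22 and −0.36 at 2 h, and 0.62 and 0.60 at 4 h. For LPS with PGE2 they were 0.45 and 0.05 at 1 h, 0.20 and 0.00 at 2 h, and 0.19 and 0.40 at 4 h. The gaps ranged from 0.02 to 0.41 log2 units in size, and 2 of 6 combinations lay below their sum. Lipid binding protein is listed for the LPS part of each sum and not for the combination. Every gap but that of LPS with PGE2 at 1 h was smaller than the SD between the sets of that combination. Each gap also carries the spread of both single treatments, and whether the log2 ratios of Plk2 add was not tested.

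**Figure D2:**
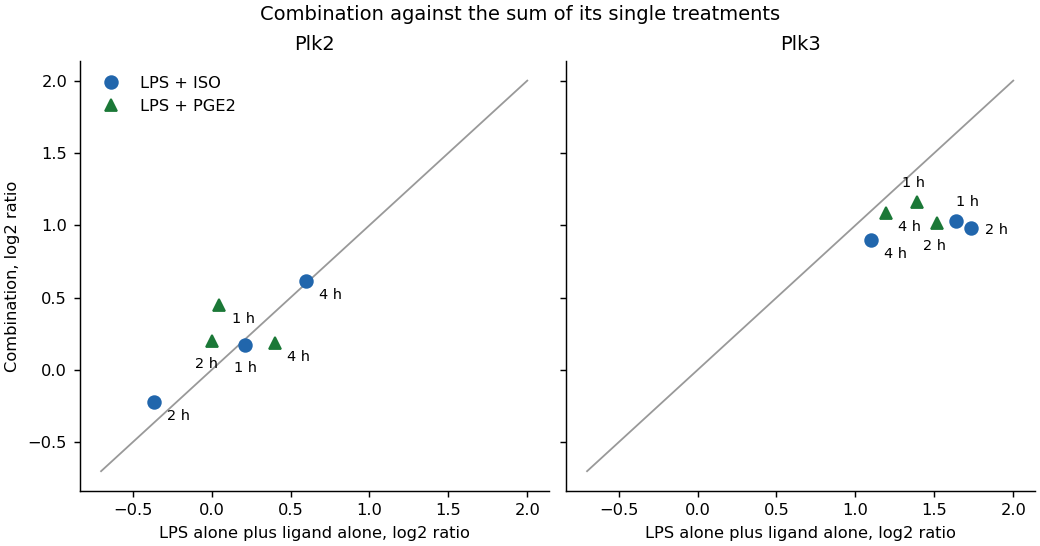
Mean log2 ratio of each combination (vertical axis) against the sum of the mean log2 ratios with LPS alone and with the second ligand alone (horizontal axis) for Plk2, left, and Plk3, right; each point is 1 combination at the time beside it, and the grey line marks equality. Plk2 points lie within 0.41 log2 units of the line on both sides, and all 6 Plk3 points lie below it.

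The Plk2 values are given here by probe and by dye. The signs with LPS, ISO or PGE2 alone are those by which Plk2 was chosen, so their counts are a description and not a check. The 2 probes of the gene had the same sign in 15 of 15 group means, with r = 0.982 between them as a description over those groups. Probe 1 gave positive values on 18 of 18 LPS arrays and negative ones on 33 of 34 arrays of ISO or PGE2 alone, the other at 0.03. Probe 2 gave the same counts, 18 of 18 and 33 of 34, the other being listed at exactly 0 on 1 array of ISO at 4 h. The probes differed most in size for ISO at 2 h, at −1.26 ± 0.08 for probe 1 and −2.25 ± 0.29 for probe 2 (SD, n = 3). PGE2 at 2 h gave −1.04 and −1.74, and PGE2 at 4 h gave −0.55 and −1.18. Probe 1 also read higher with the treated RNA in Cy5 than in Cy3, by a median of 0.27 over 44 pairs, and probe 2 differed by −0.05. Over all treatments, the 2 arrays of a dye-swap pair had the same sign in 37 of 44 pairs for probe 1 and 41 of 44 for probe 2. The mean over both dyes and both probes is the value given for Plk2.

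**Figure D3:**
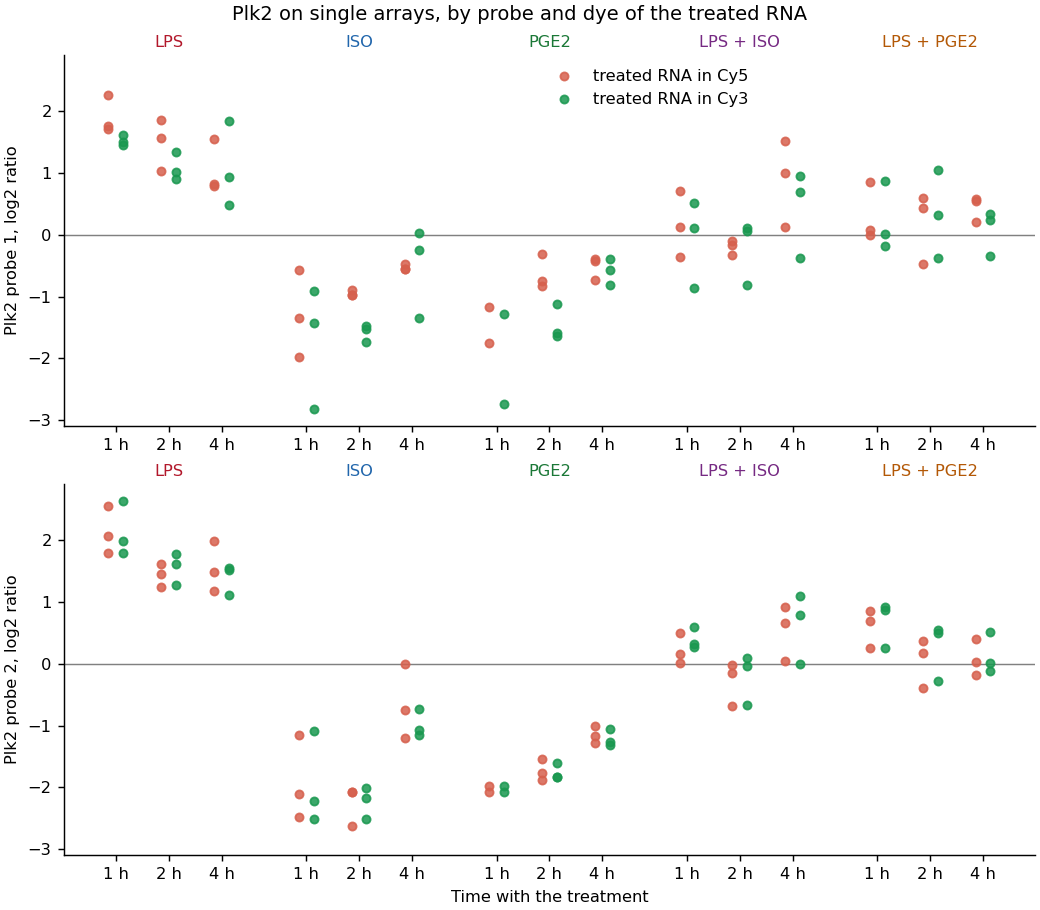
Log2 ratio of treated over medium (vertical axis) on single arrays for the 2 Plk2 probes, by treatment and time (horizontal axis); each point is 1 array, coloured by the dye of the treated RNA. Both probes lie above 0 on all 18 LPS arrays, and below 0 on 33 of 34 arrays with ISO or PGE2 alone.

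Plk3 rose with LPS at every time, and its level in LPS with ISO or PGE2 did not pass a test of difference from LPS alone. Here and below, a gene is said to rise or fall where limma gave an adjusted p under 0.05 (Benjamini-Hochberg over all 10518 genes, two-sided). At 1 h with LPS the Plk3 sets were at 1.53, 0.85 and 1.57, a mean of 1.32 ± 0.41 (SD, n = 3), or 2.49-fold over medium (limma adjusted p = 4.97e-07). At 2 h they were at 1.31, 1.48 and 0.89, a mean of 1.23 ± 0.30 or 2.34-fold (limma adjusted p = 6.93e-07). At 4 h they were at 1.34, 0.71 and 0.91, a mean of 0.99 ± 0.32 or 1.98-fold (limma adjusted p = 8.26e-06). LPS changed 9.48%, 15.9% and 30.7% of all genes at the 3 times and raised 4.64%, 8.88% and 14.3%, so a call is common at 4 h. With only the groups compared in the fit, the log2 values were the same and limma adjusted p was 0.303, 0.0725 and 0.0752, so none of the 3 passed. Counts of called genes were lower without set 3, whose removal also changes the spread shared by all groups. LPS then called 377, 752 and 2133 genes, against 997, 1671 and 3228 with set 3.

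With ISO alone Plk3 was at 0.06, 0.44 and 0.46 at 1 h, a mean of 0.32 ± 0.23 (SD, n = 3). At 2 h it was at 0.55, 0.54 and 0.41, a mean of 0.50 ± 0.08, and at 4 h at −0.10, 0.28 and 0.16, a mean of 0.11 ± 0.19. Adjusted p from limma was 0.526, 0.137 and 0.828, where 0.903%, 1.71% and 3.36% of all genes passed. With the set number within each time as a block, chosen after seeing the data, Plk3 passed for ISO at 2 h (limma adjusted p = 0.0230). With PGE2 alone the means were 0.07 ± 0.40 at 1 h (n = 2), 0.29 ± 0.18 at 2 h and 0.20 ± 0.09 at 4 h, with limma adjusted p of 0.966, 1 and 0.80. PGE2 called 0.323%, 0.456% and 1.14% of all genes. Of these 17 sets 15 lay above 0, between −0.21 and 0.55. The share of all genes with such a count was not computed, so nothing is read from it. The same 17 sets lay below 0 for Plk2, but it was chosen by these values, so the contrast is a description only.

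After 1 h of LPS with ISO the Plk3 sets were at 0.83, 0.79 and 1.48 (mean 1.03 ± 0.39, SD). They were at 0.83, 1.34 and 0.77 after 2 h (0.98 ± 0.31), and 1.33, 0.55 and 0.82 after 4 h (0.90 ± 0.40). After 1 h of LPS with PGE2 they were at 1.08, 0.86 and 1.55 (1.16 ± 0.35). By 2 h those sets were at 1.13, 1.21 and 0.71 (1.02 ± 0.27), and by 4 h at 1.34, 0.86 and 1.05 (1.09 ± 0.24). All 18 sets lay above 0. Plk3 rose over medium in each of the 6 groups, with limma adjusted p from 1.64e-06 to 3.70e-05. With only the groups compared in the fit none of the 6 passed (limma adjusted p 0.0606 to 0.308). The share of all genes called was 7.43%, 13.9% and 30% for LPS with ISO and 7.68%, 13.3% and 31.6% for LPS with PGE2. The share raised was 4.15%, 7.7% and 14.4%, and 4.7%, 7.49% and 15.2%. Without set 3, adjusted p for LPS with ISO at 1 h was 0.0531.

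Against LPS alone at the same time, Plk3 in LPS with ISO differed by −0.29 at 1 h (95% interval −0.75 to 0.18), −0.25 at 2 h (−0.72 to 0.22) and −0.09 at 4 h (−0.55 to 0.38). For LPS with PGE2 the differences were −0.15 (−0.62 to 0.31), −0.21 (−0.68 to 0.26) and 0.10 (−0.37 to 0.57). None passed in limma (adjusted p 0.961 to 1), and sets overlapped in 6 of 6 comparisons. As for Plk2, the added ligand and the listing of lipid binding protein both differ and cannot be told apart. Set against the LPS set of the same number, Plk3 was lower in 9 of 9 sets with ISO (−0.71 to −0.01). With PGE2 it was lower in 5 of 9 (−0.46 to 0.15). The share of all genes with such counts was not computed, and the labels do not say that equal numbers are matched cultures. Nothing is therefore read from these counts. With the set number within each time as a block none of the 6 comparisons passed either (limma adjusted p 0.563 to 1). These intervals leave room for a change of up to 0.75 log2 units, so they do not show that the ligands leave Plk3 alone. Few genes passed at all in these comparisons: 0.019%, 0% and 0.0951% for ISO at 1, 2 and 4 h, and 0%, 0% and 0.0285% for PGE2. At an unadjusted p under 0.05, 629, 308 and 351 genes passed for ISO and 484, 242 and 424 for PGE2 in the same limma fit. The Plk2 differences of −1.75 to −0.65 lay below those of Plk3 in all 6 comparisons, a difference between the genes that was not tested. The LPS values subtracted for Plk2 are among those by which it was chosen, so nothing is read from this.

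All 6 Plk3 combinations lay below the sum of the single treatments, by 0.10 to 0.75 log2 units. Again lipid binding protein is listed for the LPS part of each sum and not for the combination. Over the 3 times the combination minus the sum was −0.52 (SE 0.16) for ISO and −0.28 (SE 0.17) for PGE2, with limma adjusted p of 0.299 and 1, where 0.209% and 0.0285% of all genes passed. With the set number within each time as a block, limma adjusted p for ISO was 0.0448. ISO and PGE2 alone differed by 0.12 for Plk3 as a mean over times (95% interval −0.16 to 0.40), and LPS with ISO and LPS with PGE2 by −0.12 (−0.39 to 0.15). Limma adjusted p was 1 for both, and 0% of genes passed in either, with 277 and 130 at an unadjusted p under 0.05. Between 4 h and 1 h the Plk3 ratio differed by −0.33 (SE 0.23) with LPS and by −0.21 to 0.13 with the other 4 treatments. None of the 5 passed in limma (adjusted p 0.39 to 0.91), where 19.9% of genes passed for LPS, 0.57% for ISO, 0.133% for PGE2, 19.9% for LPS with ISO and 20.5% for LPS with PGE2.

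Ordered by group mean, Plk2 ran from LPS at 1 h (1.93) down through the other LPS groups, the 6 combinations and the 6 single-ligand groups to PGE2 at 1 h (−1.88). Neighbours in that order overlapped in their sets except between LPS at 1 and 2 h and between PGE2 at 4 and 2 h. For Plk3 the 9 groups with LPS (0.90 to 1.32) lay above the 6 without it (0.07 to 0.50). The gap between LPS with ISO at 4 h and ISO at 2 h was the one place in the Plk3 order where neighbours did not overlap, and there the nearest sets were both at 0.55. Over the 15 group means Plk2 and Plk3 had r = 0.862, a description over points that share a comparison with medium and, in 9 cases, LPS.

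Of the other polo-like kinases, 1 of 3 listed was measured. Plk4, the kinase that starts centriole duplication, rose by 0.20 ± 0.08 at 1 h with LPS (SD, n = 3, limma adjusted p = 0.0395) and fell by 0.31 at 4 h (limma adjusted p = 0.000199). It showed the same 2 changes in both combinations, with 0.24 and 0.27 at 1 h and −0.37 and −0.38 at 4 h, and it passed in none of the 6 groups of ISO or PGE2 alone. The rise at 1 h was lost without set 3 in all 3 treatments (limma adjusted p 0.372, 0.224 and 0.215) and without set 2 for LPS alone (0.0755). With only the groups compared in the fit, none of the 6 Plk4 calls over medium passed, whether at 1 h or at 4 h. The levels of Plk1 and Plk5 were not analysed here.

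The lists that follow are described beside all genes. They were chosen with earlier results of these data known. With ISO alone 0.713%, 0.884% and 1.87% of all genes rose and 0.19%, 0.827% and 1.48% fell at 1, 2 and 4 h, and with PGE2 alone 0.2%, 0.238% and 0.542% rose and 0.124%, 0.219% and 0.599% fell. LPS lowered 4.84%, 7.01% and 16.4% of all genes, LPS with ISO 3.27%, 6.15% and 15.6%, and LPS with PGE2 2.99%, 5.77% and 16.5%. The median of all genes was within 0.01 of 0 in each of the 15 groups.

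Among genes whose products work with or are phosphorylated by these kinases, 13 of 20 listed were measured. With LPS 1 rose and 1 fell at 1 h, 1 rose and 2 fell at 2 h, and 6 fell at 4 h. Jun, an AP-1 subunit, rose at 1 h (1.15 ± 0.39, SD, n = 3). Rap2a, a small GTPase of the Ras family, fell at 4 h (−0.60 ± 0.23), as did the checkpoint kinase gene Chek2 (−1.23 ± 0.02) and cyclin E1, Ccne1 (−0.76 ± 0.13). None of the 13 passed with ISO or PGE2 alone. The list's median lay between −0.10 and 0.06 in the 15 groups.

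Of genes of mitosis and the centrosome, the setting of Plk1 and Plk4, 21 of 26 listed were measured. With LPS 3, 6 and 13 of them fell at 1, 2 and 4 h and 1 rose at 4 h, with a list median of −0.36 at 4 h. Fbxo5, an inhibitor of the anaphase-promoting complex that Plk1 marks for destruction, fell to −1.47 ± 0.08 at 4 h (SD, n = 3) and Wee1, a kinase that holds back entry into mitosis, to −1.23 ± 0.03. Sass6, a structural protein of the centriole, rose (1.06 ± 0.25). In the combinations at 4 h, 1 rose and 10 fell for ISO and 2 rose and 12 fell for PGE2. With ISO alone at 4 h Kif23 (0.44 ± 0.19) and Cep55 (0.32 ± 0.04), both needed for cytokinesis, rose, and none passed in the other 5 groups of ISO or PGE2 alone.

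Of 24 listed p53 target genes 20 were measured. With LPS 5 rose and 1 fell at 1 h, 6 rose and 3 fell at 2 h, and 6 rose and 10 fell at 4 h, with list medians of 0.08, 0.01 and −0.18. The member that rose most was Btg2, an antiproliferative gene, at 1 h (4.12 ± 0.10, SD, n = 3), Gadd45a, a stress sensor, at 2 h (2.89 ± 0.38), and Fas, a death receptor, at 4 h (4.09 ± 0.16). Mdm2 also rose at 1 h (1.20 ± 0.64). Whether p53 has a part in these changes was not tested. Phlda3, a repressor of Akt, fell at 4 h (−1.44 ± 0.51). ISO alone raised Btg2 at 1 h (1.46 ± 0.33) and lowered Pmaip1, a pro-apoptotic gene of the Bcl2 family, at 2 h (−0.81 ± 0.48), and no other member passed with ISO or PGE2 alone. Combination counts were close, from 6 rising and none falling at 1 h with ISO to 7 rising and 8 falling at 4 h with either ligand.

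Serum-inducible immediate early genes, the class in which Plk2 and Plk3 were first described, rose widely with LPS. Of 33 measured among 34 listed, 21, 20 and 18 rose and 1, 2 and 2 fell at 1, 2 and 4 h, with list medians of 1.44, 1.20 and 0.82 on the log2 scale. ISO alone raised 10 and lowered 1 at 1 h, raised 4 and lowered 2 at 2 h, and lowered 1 at 4 h. PGE2 alone raised 2, 1 and 0 and lowered 1, 2 and 2. Most listed genes that responded to ISO at 1 h rose, such as the orphan nuclear receptor Nr4a1 (2.43 ± 0.33, SD, n = 3), the phosphatase Dusp1 (1.71 ± 0.08) and Ier3 (1.57 ± 0.23). Plk2 was at −1.72 there, but it was chosen by such values, so nothing is read from the contrast. The listed genes that fell as Plk2 did included Rgs2, a regulator of G protein signalling, at −1.78 ± 0.14 with ISO at 2 h and −1.70 ± 0.06 (n = 2) with PGE2 at 1 h. Atf3, a stress-induced transcription factor, was at −2.13 ± 0.19 with ISO and −1.64 ± 0.27 with PGE2 at 2 h.

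Of targets of cyclic AMP and CREB, 20 of 24 listed were measured, and most of those called with ISO alone at 1 and 2 h rose. Plk2 was lower there, but it was chosen by such values and the list was drawn up with earlier results known. The contrast is therefore a description only. ISO alone raised 9, 8 and 1 and lowered 1, 2 and 1 at 1, 2 and 4 h, and PGE2 raised 4, 2 and 1 and lowered 1, 2 and 1. Among those that rose with ISO were the phosphodiesterase Pde4b (1.77 ± 0.56 at 1 h, SD, n = 3), Hilpda, a lipid droplet protein (1.81 ± 0.14 at 1 h), and the transglutaminase Tgm2 (1.73 ± 0.31 at 2 h and 2.01 ± 0.41 at 4 h). The 2 that fell at 2 h with either ligand were Rgs2 and Atf3. The list median was 0.61, 0.17 and −0.01 with ISO and 0.29, 0.07 and 0.08 with PGE2. LPS raised 10, 8 and 6 and lowered 1, 2 and 1. Atf3, Dusp1, Fos, Fosb, Nr4a1, Nr4a2 and Rgs2 are on both this list and that of immediate early genes. In LPS with ISO against LPS alone, 1 member passed, Nr4a1 at 1 h (2.42, limma adjusted p = 0.0428).

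Of 11 measured among 16 listed stress kinases and MAP kinase phosphatases, LPS raised 3 at each time and lowered 5 at 4 h, with list medians of 0.03, 0.11 and −0.13. Map3k8, the kinase that links Toll-like receptors to ERK, rose at 1 h (1.38 ± 0.24, SD, n = 3), 2 h (1.55 ± 0.57) and 4 h (2.38 ± 0.63), and the phosphatase Dusp14 fell at 4 h (−1.32 ± 0.34). ISO alone raised Dusp14 at 2 h (0.48 ± 0.07) and Map2k3 at 4 h (0.40 ± 0.21), and none passed with PGE2 alone. The known LPS targets used for the direction gave 15, 20 and 21 rising of 23 with LPS and none falling, and ISO or PGE2 alone raised 1 or 2 at each time and lowered 1, the chemokine gene Ccl4 with ISO at 2 h (−1.24). Of 11 measured macrophage markers, LPS raised 0, 2 and 5 and lowered 2, 0 and 2, and ISO or PGE2 alone raised at most 3 and lowered none. Of 23 measured markers of other cell types, LPS raised 1, 1 and 2 and lowered 0, 1 and 0, and none passed with ISO or PGE2 alone. Their part in the kinase results was not tested.

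The genes whose 15 group means followed Plk2 most closely, among 6946 genes with a value other than 0 on at least 80% of arrays, were Atf3 (r = 0.920), the homeobox gene Tlx2 (0.917), Lpp, a LIM protein of focal adhesions (0.904), Utp3, a protein of ribosome assembly (0.889), and Gpr84, a receptor for medium-chain fatty acids (0.888). Atf3 and Lpp had means below 0 in 6 of 6 groups with ISO or PGE2 alone, between −2.13 and −1.01 for Atf3 and between −1.08 and −0.30 for Lpp. Tlx2, Utp3 and Gpr84 lay between −0.21 and 0.36 in those groups, where Plk2 lay between −1.88 and −0.67. Most opposite were Gpatch8 (−0.927), Zfp53 (−0.923) and Zfp87 (−0.923).

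Plk3 was followed most closely by Sertad1, a transcriptional coregulator (r = 0.961), the AP-1 gene Fosl1 (0.956), the cytokine gene Tnf (0.956), Cflar, an inhibitor of death receptor signalling (0.954), and Phlda1 (0.953). These 5 genes lay above 0 in 9 of 9 groups with LPS, between 1.33 for Fosl1 at 4 h and 4.73 for Phlda1 at 2 h. With ISO or PGE2 alone Sertad1 and Phlda1 were above 0 in 6 of 6 groups, Fosl1 in 5, Tnf in 4 and Cflar in 2. Most opposite were Agfg2 (−0.962), Slx1b (−0.959) and Chchd5 (−0.948). No gene was among the 5 most alike to both kinases. All r values are descriptions over 15 means that share a comparison with medium.

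**Figure D4:**
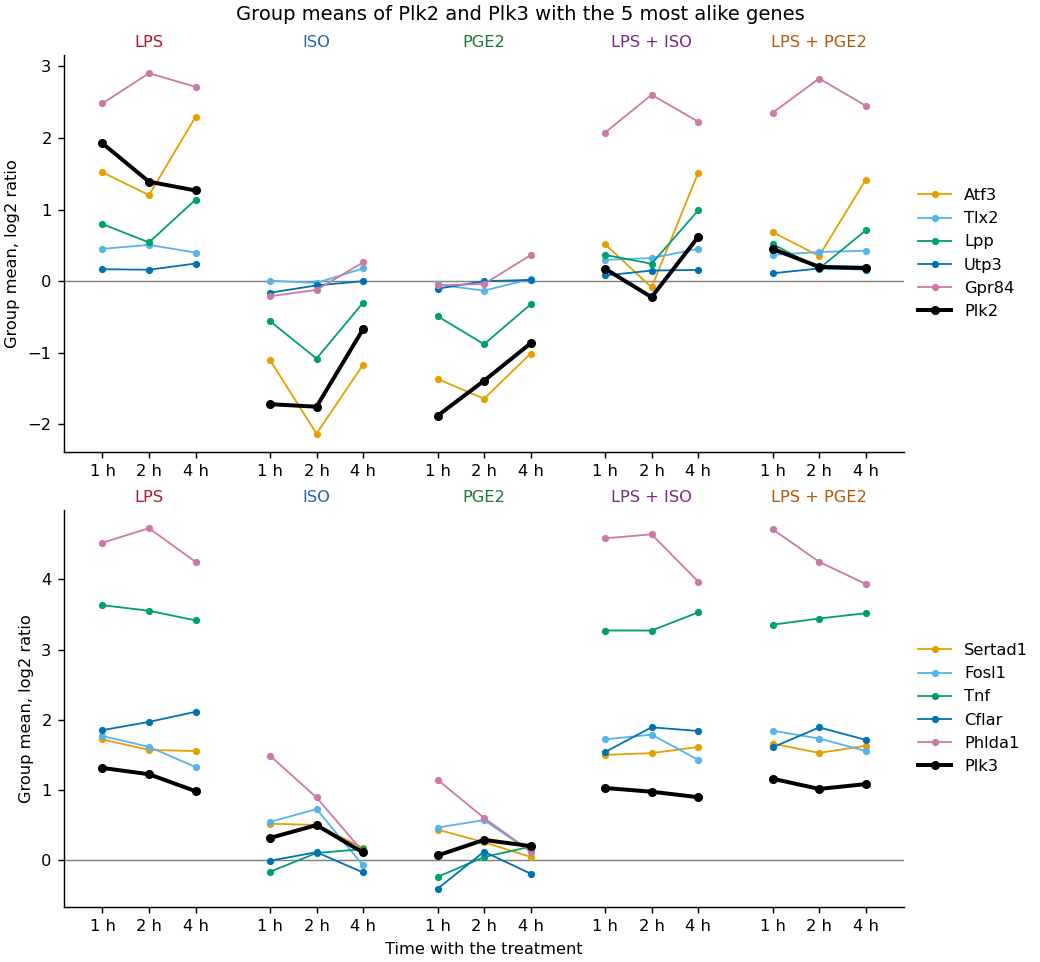
Mean log2 ratio of treated over medium (vertical axis) by treatment and time (horizontal axis) for Plk2, top, and Plk3, bottom, in black, each with the 5 genes of highest r over the 15 group means in colour; lines join the times of 1 treatment. Atf3 and Lpp lie below 0 with Plk2 in the 6 groups of ISO or PGE2 alone, and Plk3 and its 5 genes lie above 0 in the 9 groups with LPS.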

How the data were processed

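The authors deposited log2 ratios, 1 per probe and array. The sources used here do not name the image reading, normalization or filters behind them. The log2 scale was read from the values, whose largest size, 6.64, is log2 of 100. The numerator and the centring stay unknown: every column had a median of 0, with 10.95 to 45.67% of probes at exactly 0, whose meaning is not given. The depth of signal is unknown, and the number of arrays limits the precision. Ratios were read as Cy5 over Cy3, turned to treated over medium, averaged over the 2 arrays of a set and then over the probes of a gene. Symbols came from the platform annotation and a RefSeq table of GRCm38.p6. Probes with several genes or none, and those at 0 on every array, were left out.

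The 44 set values were fitted in 1 model of 15 group means with limma 3.58.1 in R 4.3.3 (lmFit and eBayes, 29 residual and 2.678 prior degrees of freedom), which was tested on simulated data, and p was adjusted by Benjamini-Hochberg over 10518 genes. The members and gene lists were chosen with earlier results of these data known. Named by rule were the measured polo-like kinases, up to 3 members per list and comparison with the largest called change, and the 5 most and 3 least alike genes by Pearson r. Alternatives covered zeros, centring, a gene filter, samples in the fit, blocks, single probes and each set left out.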

Additional observations from a re-analysis of the deposited data

Results flagged for a closer look

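The Plk4 response to LPS differed between times. The log2 ratio at 4 h minus that at 1 h was −0.5090 with LPS, −0.6095 with LPS and ISO and −0.6549 with LPS and PGE2, and limma gave adjusted p of 5.06e-05, 3.57e-06 and 1.03e-06 for these differences. Of all genes 19.9%, 19.9% and 20.5% passed in the same comparisons. In all 3 treatments every set lay above 0 at 1 h and below 0 at 4 h. Every set also lay above 0 at 2 h and below 0 at 4 h with LPS, where the difference was −0.4596, and with LPS and ISO, where it was −0.4715. These differences between 2 and 4 h were not tested. The share of all genes with such signs was not computed. As given above, the Plk4 rise at 1 h was lost without set 3. None of the Plk4 calls over medium passed with only the groups compared in the fit.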

How the results depend on the processing

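Zeros as missing, centring on values other than 0 and the gene filter kept direction and side of the threshold for all 30 Plk3 comparisons. With only the groups compared in the fit, which leaves few degrees of freedom, Plk3 no longer passed in the 9 groups with LPS: adjusted p from limma was 0.303, 0.0725 and 0.0752 for LPS at 1, 2 and 4 h, 0.308, 0.137 and 0.147 for LPS with ISO, and 0.273, 0.115 and 0.0606 for LPS with PGE2. Samples with the same set number and time had a median r of 0.361 between their deviations from the group means, against −0.185 for other numbers at the same time. Deviations within a group sum to 0, so the second value largely follows from the first and adds no separate contrast. Of the 86 pairs with the same number and time, 84 were over 0.1 (lowest 0.028), so sets of 1 number and time varied together. Because 2 pairs were not over 0.1 and the labels do not say what a number marks, the main fit used no block. Its p-values do not model this shared variation, which stays within the spread between sets. The set number as a replicate block changed no Plk3 call (adjusted p 9.72e-07 for LPS at 1 h). A block of set number within time was chosen after seeing the data; with it Plk3 passed with ISO at 2 h (0.0230) and in the ISO combination minus the sum (0.0448), and the PGE2 difference of 4 h minus 1 h turned sign (0.9910). The cause was not tested.

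Leaving out each set in turn, where a lone sample is assumed to vary like the other groups, gave Plk3 adjusted p from 0.000557 to 0.0531 for LPS with ISO at 1 h. Differences that never passed turned sign without 1 set: PGE2 at 1 h (0.798 to 0.990), PGE2 (0.597 to 1), LPS with ISO (0.328 to 0.925) and LPS with PGE2 (0.630 to 0.890) at 4 h minus 1 h. Plk4 turned sign for ISO at 1 h (0.808 to 1), ISO at 2 h (0.934 to 1) and PGE2 at 4 h (0.891 to 1), none of them called. Plk4 with LPS at 1 h missed the threshold with zeros as missing (0.0548). Plk2 in LPS with ISO minus LPS at 1 h ranged from −2.06 to −1.40. Plk2 by probe 1 or 2 alone was −1.26 or −2.25 for ISO at 2 h, −1.04 or −1.74 for PGE2 at 2 h and −0.55 or −1.18 for PGE2 at 4 h.

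Counts of called genes over medium fell by over 1.5 times without set 3 in 15 of 15 groups (PGE2 at 1 h to 4 genes, ISO at 1 h to 8) and without set 2 in 6, rose without set 1 in 4 and with the block within time in 12, and fell in 15 of 15 with only the groups compared. PGE2 at 1 h has no set 3, so its count fell through the spread and degrees of freedom that all groups share in the fit. The spread between 2 or 3 sets limits all values.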
